A study of Mesocricetus auratus with 6 samples.

Results

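Indian hedgehog signalling was described through 9 genes, the ligand Ihh, the receptor Ptch1, the transducer Smo, the transcription factors Gli1, Gli2 and Gli3, the inhibitors Hhip and Sufu, and the nuclear receptor Nr2f2. All probe sets annotated with exactly 1 of these symbols were taken, which gave 16 of the 22626 probe sets tested and 9 of 12393 genes with such a probe set. Ihh, Gli1 and Gli3 had 1 probe set each, Ptch1, Smo, Gli2, Hhip and Sufu had 2 each, and Nr2f2 had 3. The RNA came from the untreated uterus of the golden hamster (Mesocricetus auratus), taken in pregnancy on day 5, and was measured on an Affymetrix mouse array. The groups were 3 arrays of implantation sites, where a blastocyst had attached, and 3 arrays of interimplantation sites, the uterine segments without an embryo between them. The RNA sets came from 3 animals per the series' design text, and whether arrays of the same number share an animal is not given.

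In the mouse uterus, progesterone acting through its receptor induces Ihh in the epithelium. Ihh protein reaches the stroma below, where it binds Ptch1, relieves the block of Ptch1 on Smo and so activates the Gli factors. Transcription of Gli1, Ptch1 and Hhip is a common readout of an active pathway. Nr2f2, also called COUP-TFII, is a stromal nuclear receptor that lies downstream of Ihh in mouse and is needed there for attachment and for the start of decidualisation. The comparison asks whether the transcripts of this axis differ between the attachment site and the wall between sites.

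Among the 16 probe sets, 1 was lower at the implantation site, 0 were higher and 15 did not pass the test (limma, adjusted p under 0.05). The probe set that passed was 1 of the 2 for Sufu. Over the whole array 2.31% of the probe sets passed, 1.26% as higher and 1.05% as lower, so the members' share, 6.25%, rests on a single probe set. At an unadjusted p under 0.05 the count among the 16 was also 1, where 14.0% of all probe sets reached that value. The differences of the 16 probe sets, implantation minus interimplantation on the log2 scale, were positive in 8 and negative in 8. Their median was −0.0024, beside −0.020 over all probe sets, and their median absolute difference was 0.0685, beside 0.0871 over all probe sets. The plot of each probe set by array shows every value.

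**Figure D1:**
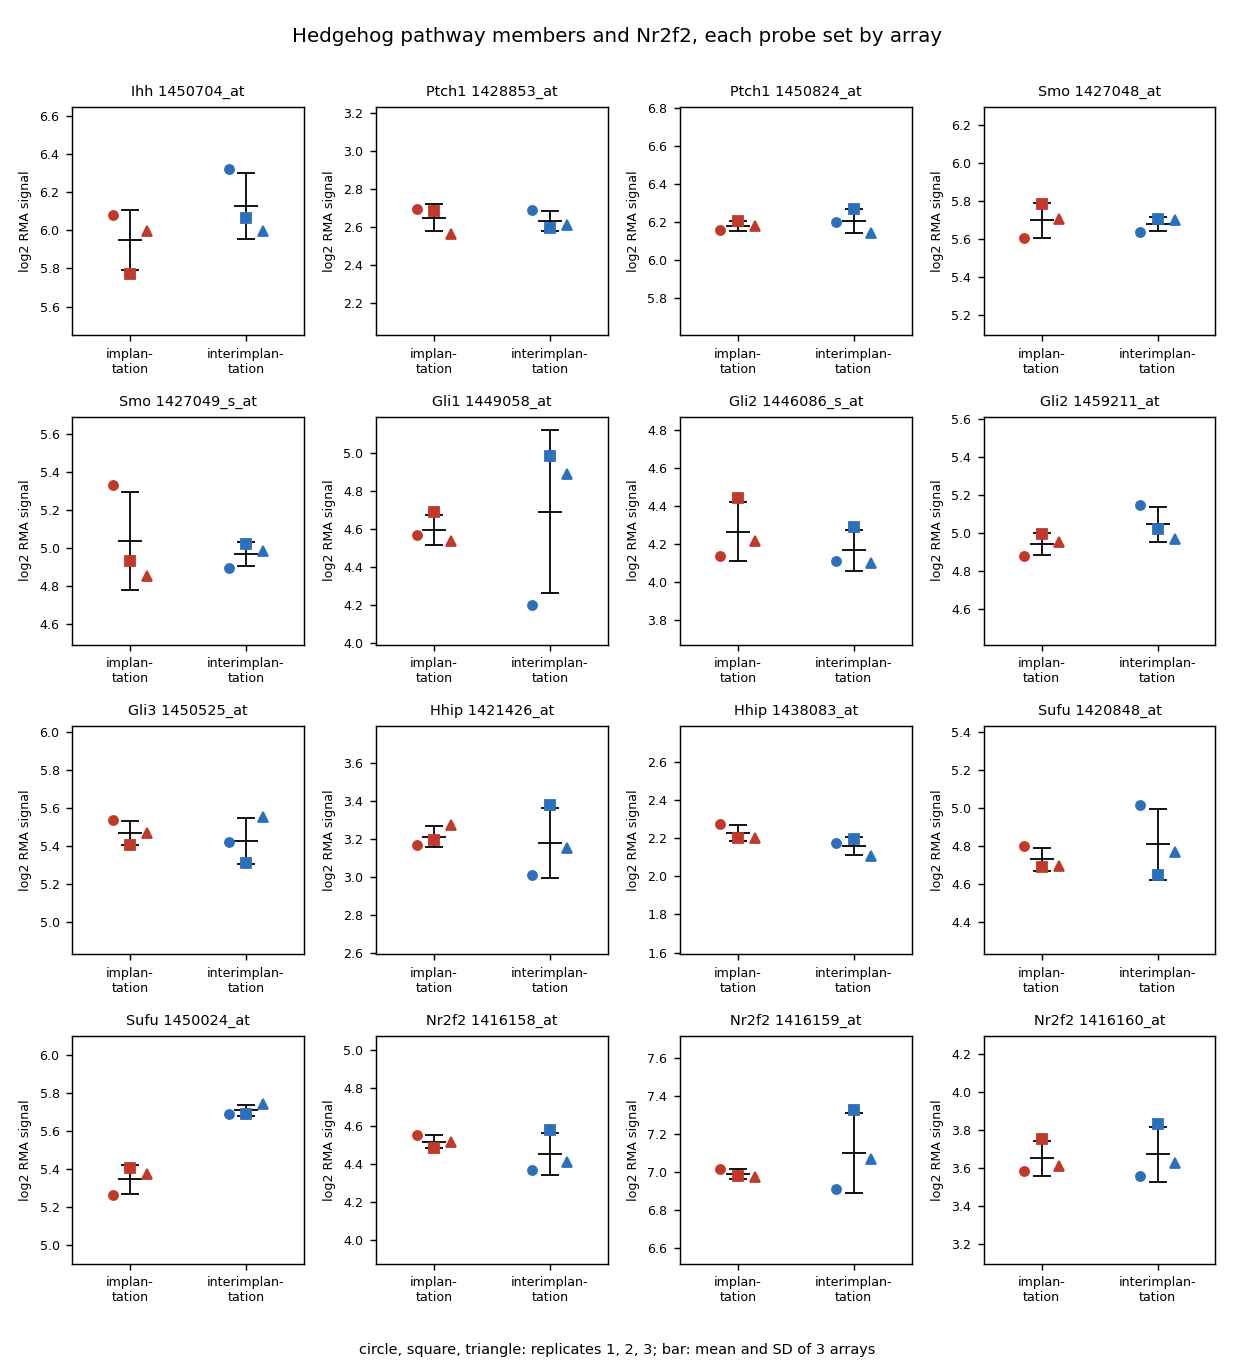
Log2 RMA signal (vertical axis) of the 16 probe sets on the 3 implantation arrays (red, left) and the 3 interimplantation arrays (blue, right), with the mean and SD of each group as black bars and replicate numbers as symbols. The groups are apart for Sufu 1450024_at, at 5.26 to 5.41 against 5.69 to 5.74, and by a small margin for Hhip 1438083_at. The other 14 overlap.

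Values are log2 RMA signals (robust multi-array averaging, which makes the arrays' distributions alike). The array medians ran from 4.55 to 4.57. The mouse probes can bind hamster RNA less well, so signals of different probe sets were not ranked against each other, and a difference near 0 does not show an equal transcript level. As a guide to the floor, 27 control probe sets for Bacillus genes had a median of 2.68, and the brightest stood at 5.79. Of the 16 probe sets, 3 had a mean above all 27 controls (Ihh 1450704_at, Ptch1 1450824_at and Nr2f2 1416159_at). With these 3 included, 11 had at most 1 control above them. Gli2 1446086_s_at, Nr2f2 1416160_at and Hhip 1421426_at had 2, 6 and 9 controls above them, and 2 (Ptch1 1428853_at and Hhip 1438083_at) lay below the control median. The uterine transcription factors Hoxa10 and Hoxa11 averaged 6.05 and 7.23 at implantation sites and 6.22 and 7.45 at interimplantation sites, above every Bacillus control. The hybridisation controls were dimmer by 0.40 on the implantation arrays (6.64 ± 0.17 against 7.03 ± 0.27, SD, n = 3 each), with overlap between the groups. When every array was scaled to these controls, the median over the array was 0.38 in place of −0.020, and 752 probe sets were called higher and 13 lower, where the deposited values gave 284 and 238. Every difference is thus given against the median of the array. The scaling raises every difference by 0.40, so a positive difference can pass under it for that reason alone. A pass under the scaling is therefore no separate evidence of a rise. Interimplantation array 1 stood apart on the second principal component, at −20.7 against 11.6 and 7.67 for interimplantation arrays 2 and 3.

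Ihh, the secreted ligand, did not pass the test. Its probe set 1450704_at read 6.08, 5.77 and 5.99 at the implantation sites, against 6.33, 6.07 and 5.99 at the interimplantation sites. Interimplantation array 1 was the highest and implantation array 2 the lowest, and the groups overlapped. The mean was 5.95 ± 0.16 at implantation sites and 6.13 ± 0.17 at interimplantation sites (SD, n = 3 each). The difference was −0.18 (SE 0.11, limma adjusted p = 0.523), and its 95% interval ran from −0.42 to 0.061, that is, from 1.34-fold lower to 1.04-fold higher. Scaled to the hybridisation controls, the difference was 0.22 (adjusted p = 0.352). Taking the control level as a covariate gave 0.033 (adjusted p = 0.949).

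The epithelium, where Ihh is made in the mouse, was also read through 17 measured marker genes. Of these, 4 fell at the implantation site, 0 rose and 13 did not pass, and 16 of the 17 differences were negative. Over all 12393 genes by their brightest probe sets, 2.54% were called, 1.18% as lower, and 6961 differences were negative. The mean log2 signal over the 17 ran from 5.08 to 5.18 on the implantation arrays and from 5.43 to 5.53 on the interimplantation arrays, a difference of −0.35. The 4 that fell were Cd24a, a surface glycoprotein of many epithelia, the tight junction protein Cldn7, the ligand Wnt7b and the factor Sox17, with differences of −1.99, −0.78, −0.50 and −0.53 (limma adjusted p = 6.74e-07, 0.00868, 0.0112 and 0.0467). The 13 that did not pass ran from −0.47 for Krt18 to 0.00068 for Krt19, with Epcam at −0.013 and Muc1 at −0.022. The fall was thus uneven over the markers. The median difference over the markers was −0.21, beside −0.020 over all genes by their brightest probe sets, and with scaling to the hybridisation controls it was 0.19. In whole tissue, fewer cells of a type and less RNA per cell cannot be told apart, and the part of the epithelium in the Ihh value was not tested. Of 11 smooth muscle markers, 2 fell (the actin-binding Tagln by 1.26 and the actin Actg2 by 1.74), 0 rose and 9 did not pass. Of the 11 differences, 8 were negative and 3 positive (Des 0.13, Cald1 0.096 and Myh11 0.059). The mean signal over the 11 ran from 5.34 to 5.54 on the implantation arrays and from 5.76 to 5.93 on the interimplantation arrays.

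Ptch1 is both the receptor for the ligand and a target gene of the pathway. Its brighter probe set 1450824_at read 6.16, 6.21 and 6.18 at implantation sites, against 6.20, 6.27 and 6.14 at interimplantation sites. The implantation values lay inside the range of the interimplantation values, and the difference was −0.024 (SE 0.080, limma adjusted p = 0.934). The 95% interval, −0.20 to 0.15, spans 1.15-fold lower to 1.11-fold higher. The other probe set, 1428853_at, whose signal lay below the Bacillus median, read 2.70, 2.69 and 2.57 at implantation sites, against 2.69, 2.60 and 2.61 at interimplantation sites (difference 0.017, SE 0.082, adjusted p = 0.954).

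Smo, the membrane protein that passes the signal on, also did not pass. Probe set 1427048_at read 5.60, 5.78 and 5.70 at implantation sites, against 5.63, 5.70 and 5.70 at interimplantation sites, with a difference of 0.018 (SE 0.083, limma adjusted p = 0.952). Probe set 1427049_s_at, built on the same mouse transcript record, read 5.33, 4.93 and 4.85 at implantation sites, against 4.90, 5.02 and 4.98 at interimplantation sites (difference 0.070, SE 0.12, adjusted p = 0.850). Implantation array 1 was the highest of the 6 on this probe set, and the other implantation arrays lay within or below the interimplantation range.

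Gli1, the transcription factor whose own transcription follows pathway activity, had the widest range of the members. Probe set 1449058_at read 4.57, 4.69 and 4.54 at implantation sites, against 4.20, 4.98 and 4.89 at interimplantation sites. Interimplantation array 1 was the lowest of the 6 arrays and the other interimplantation arrays were the highest, so the implantation values lay between them. The SD was 0.079 at implantation sites and 0.43 at interimplantation sites (n = 3 each). The difference was −0.094 (SE 0.16, limma adjusted p = 0.857), with a 95% interval of −0.45 to 0.26. Without interimplantation array 1 it was −0.34 and still did not pass (adjusted p = 0.0698), and without interimplantation array 2 or 3 it was 0.052 and 0.0057 (adjusted p = 0.942 and 0.994). The control level as a covariate gave −0.53 (adjusted p = 0.194), and scaling to these controls gave 0.30 (adjusted p = 0.221).

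Gli2, the main activator among the Gli factors in mouse, gave opposite signs on its probe sets, neither of which passed. Probe set 1459211_at read 4.88, 5.00 and 4.95 at implantation sites, against 5.15, 5.02 and 4.97 at interimplantation sites (difference −0.10, SE 0.085, limma adjusted p = 0.658). Probe set 1446086_s_at read 4.14, 4.44 and 4.22 at implantation sites, against 4.11, 4.29 and 4.10 at interimplantation sites (difference 0.098, SE 0.10, adjusted p = 0.733). The groups overlapped on both. Gli3, which acts mostly as a repressor when no ligand is present, read 5.53, 5.40 and 5.46 at implantation sites, against 5.42, 5.31 and 5.55 at interimplantation sites on 1450525_at. Its difference was 0.043 (SE 0.090, adjusted p = 0.884), with overlapping groups.

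Hhip, a membrane protein that binds and sequesters hedgehog ligands and is itself a target gene, was dim on both probe sets. Probe set 1421426_at read 3.17, 3.19 and 3.28 at implantation sites, against 3.01, 3.38 and 3.15 at interimplantation sites (difference 0.032, SE 0.10, limma adjusted p = 0.928). Probe set 1438083_at read 2.28, 2.20 and 2.20 at implantation sites, against 2.17, 2.20 and 2.11 at interimplantation sites (difference 0.067, SE 0.080, adjusted p = 0.778). On the second probe set the groups did not overlap, but the lowest implantation array and the highest interimplantation array both rounded to 2.20. Groups were apart in 2 of the 16 member probe sets and in 19.3% of all probe sets.

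Sufu, the cytoplasmic protein that holds the Gli factors inactive, carried the one call. Probe set 1450024_at read 5.26, 5.41 and 5.38 at implantation sites, against 5.69, 5.69 and 5.74 at interimplantation sites. All 3 implantation arrays lay below all 3 interimplantation arrays. The mean was 5.35 ± 0.076 at implantation sites and 5.71 ± 0.029 at interimplantation sites (SD, n = 3 each), which was 1.28-fold lower at the implantation site. The difference was −0.36 (SE 0.081, 95% interval −0.54 to −0.18, limma adjusted p = 0.0405), and with scaling to the hybridisation controls it was 0.035, a reversed sign (adjusted p = 0.877). An exact two-sided permutation test gave p = 0.1, the smallest that 3 arrays against 3 allow.

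The second Sufu probe set did not show this difference. Probe set 1420848_at, built on the same mouse transcript record, read 4.80, 4.69 and 4.70 at implantation sites, against 5.01, 4.65 and 4.77 at interimplantation sites. The groups overlapped, and the difference was −0.081 (SE 0.10, limma adjusted p = 0.792, 95% interval −0.30 to 0.14). The gap of 1450024_at over 1420848_at within an array was 0.47, 0.72 and 0.68 on the implantation arrays, against 0.68, 1.05 and 0.98 on the interimplantation arrays. These gaps overlapped between the groups. The mean signals of the epithelial and smooth muscle markers given beside Ihh were lower on the same arrays as Sufu 1450024_at. The part of these tissues in its value was not tested.

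**Figure D2:**
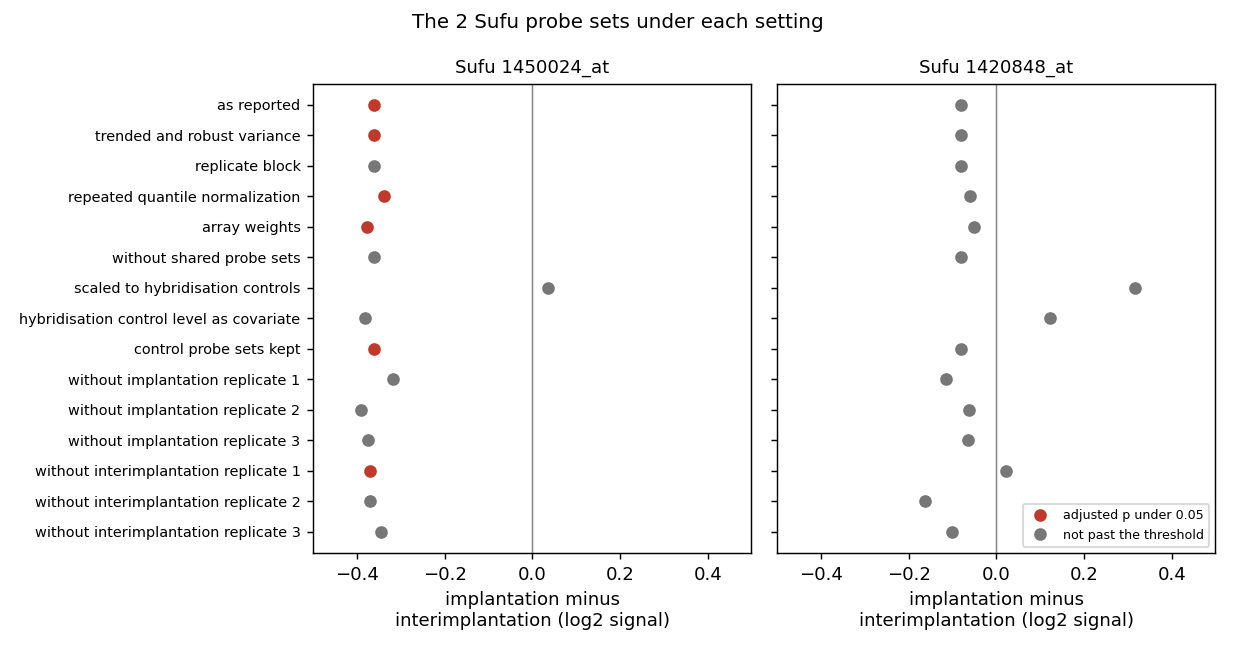
Difference between implantation and interimplantation sites (horizontal axis, log2 signal) of Sufu 1450024_at (left) and Sufu 1420848_at (right) under each setting on the vertical axis, red where the adjusted p was under 0.05. The left panel stays between −0.39 and −0.32 except with scaling to the hybridisation controls (0.035), while its adjusted p crosses the threshold in many settings.

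The Sufu call was lost in each fit that left out 1 array, except that without interimplantation array 1. The adjusted p of 1450024_at was 0.203, 0.0831 and 0.130 without implantation array 1, 2 or 3, and 0.0885 and 0.127 without interimplantation array 2 or 3, with differences of −0.32 to −0.39. Without interimplantation array 1 the call was kept (adjusted p = 0.0463). Over all probe sets, 117, 172 and 154 were called higher and 88, 114 and 98 lower without implantation array 1, 2 or 3. With every array these counts were 284 and 238. The part of the smaller number of arrays in the lost Sufu calls was not tested.

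Nr2f2 was measured by 3 probe sets built on one mouse transcript record, and none passed. The brightest, 1416159_at, read 7.02, 6.98 and 6.98 at implantation sites, against 6.91, 7.33 and 7.07 at interimplantation sites. The implantation values lay inside the interimplantation range. The mean was 6.99 ± 0.024 at implantation sites and 7.10 ± 0.21 at interimplantation sites (SD, n = 3 each), with a difference of −0.11 (SE 0.10, limma adjusted p = 0.708). The 95% interval, −0.34 to 0.12, spans 1.26-fold lower to 1.08-fold higher, and the difference was 0.29 once scaled to the hybridisation controls (adjusted p = 0.241).

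The other Nr2f2 probe sets lay closer to 0. Probe set 1416158_at read 4.55, 4.49 and 4.52 at implantation sites, against 4.37, 4.58 and 4.41 at interimplantation sites (difference 0.063, SE 0.086, limma adjusted p = 0.811). Probe set 1416160_at read 3.59, 3.75 and 3.61 at implantation sites, against 3.56, 3.83 and 3.62 at interimplantation sites (difference −0.022, SE 0.095, adjusted p = 0.949). On all 3 Nr2f2 probe sets interimplantation array 2 was the highest of the 6 arrays and interimplantation array 1 the lowest. The same order of extremes was seen for Gli1 and for Hhip 1421426_at. Interimplantation array 1 was the lowest array in 5 of the 16 member probe sets (31.2%) and in 20.1% of all probe sets. The SD was larger at interimplantation than at implantation sites in 11 of the 16 (68.8%) and in 58.1% of all probe sets.

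**Figure D3:**
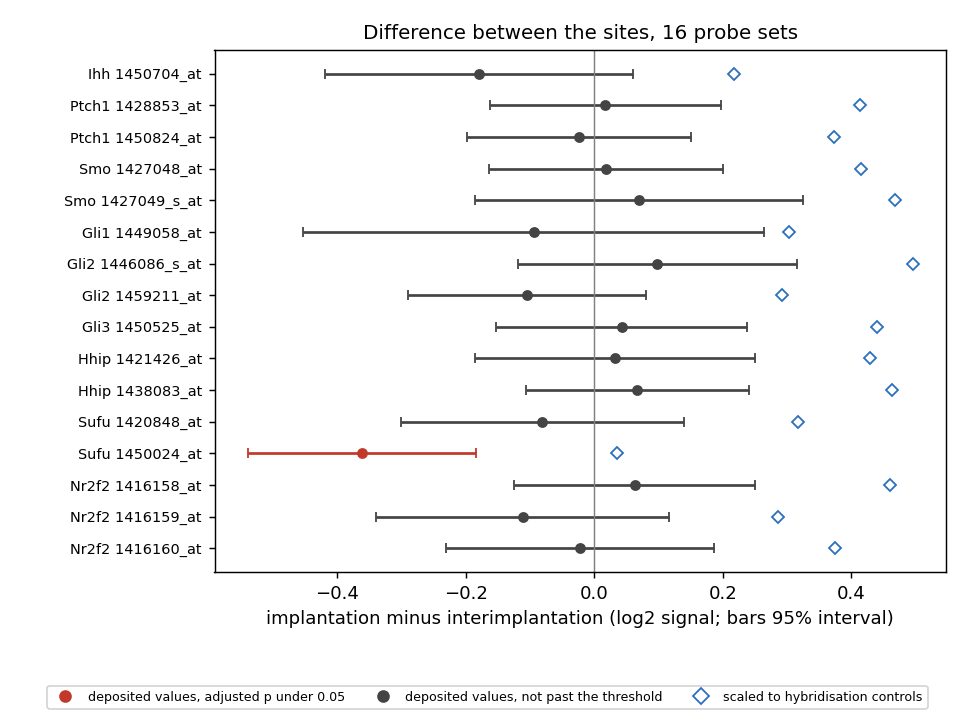
Difference between implantation and interimplantation sites (horizontal axis, log2 signal) of the 16 probe sets with its 95% interval, red where the adjusted p was under 0.05. Blue diamonds give the difference after scaling to the hybridisation controls, which adds the same amount to every probe set. The interval lies to one side of 0 for Sufu 1450024_at and includes 0 for the other 15.

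The intervals describe each difference taken alone, without adjustment for the number of probe sets. They do not give the smallest difference that the test could call. The interval of Boc 1427516_a_at, a coreceptor given below, ran from 0.14 to 0.52, and Boc did not pass (limma adjusted p = 0.0857). The 95% interval reached 0.20 to either side of the difference at the median of the 16 probe sets, and from 0.17 to 0.36 over all of them. The bound farthest from 0 over all 16 was that of Sufu 1450024_at, 1.45-fold lower at the implantation site.

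The rest of the pathway was read through 5 lists of hedgehog genes that exclude the members, with the brightest probe set standing for each gene. Of 69 measured genes, 1 rose, 1 fell and 67 did not pass, which is 2.90%, beside 2.54% of all genes on the array (1.36% higher and 1.18% lower). Their median difference was −0.034, beside −0.020 over all genes. The plot of pathway genes shows the lists side by side.

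Among ligands and the proteins that process or release them, 0 of 5 measured genes passed, also at an unadjusted p under 0.05. The values were −0.17 for the ligand Shh (limma adjusted p = 0.504), −0.13 for Hhat, which attaches palmitate to the ligand (adjusted p = 0.602), and −0.066 for Scube1, a secreted relative of the ligand release factor Scube2 (adjusted p = 0.841). All 5 differences were negative, and the 3 named were positive with scaling to the hybridisation controls (0.23, 0.27 and 0.33).

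Among receptors and coreceptors, 1 of 5 measured genes rose and 1 fell. The called share, 40%, rests on these 5 genes, beside 2.54% of all genes. At an unadjusted p under 0.05 were 4 of the 5, beside 1835 of all 12393 genes. Gas1, a coreceptor that helps the ligand bind Ptch1, read 7.90, 7.91 and 7.84 at implantation sites, against 7.40, 7.51 and 7.47 at interimplantation sites on its brightest probe set. The groups did not overlap, and the level was 1.34-fold higher at the implantation site (difference 0.42, SE 0.080, limma adjusted p = 0.0166). Its other probe sets were at 0.088 and 0.047 and did not pass. The call was lost without implantation array 1, 2 or 3 and without interimplantation array 3 (adjusted p = 0.0918, 0.0711, 0.0584 and 0.0532), while the differences were 0.42, 0.41, 0.45 and 0.43. It was also lost with the controls as a covariate (difference 0.35, adjusted p = 0.195).

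Gpc3, a glypican that competes with Ptch1 for the ligand in mouse, read 5.96, 5.96 and 5.89 at implantation sites, against 6.34, 6.45 and 6.40 at interimplantation sites. The groups did not overlap, and the level was 1.38-fold lower at the implantation site (difference −0.46, SE 0.080, limma adjusted p = 0.0103). With scaling to the hybridisation controls the difference was −0.063 (adjusted p = 0.783). With their level as a covariate it was −0.54 and not called (adjusted p = 0.0583). Without implantation array 1 or 3 it was −0.47 and −0.44, also not called (adjusted p = 0.0537 and 0.0639). Boc, a coreceptor of the Cdon family, was at 0.33 on its brightest probe set and did not pass (adjusted p = 0.0857). It passed with scaling to the hybridisation controls and without the dim probe sets (adjusted p = 0.0313 and 0.0354). Its other probe sets, 1426869_at and 1427517_at, were at −0.18 and 0.055 and did not pass.

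**Figure D4:**
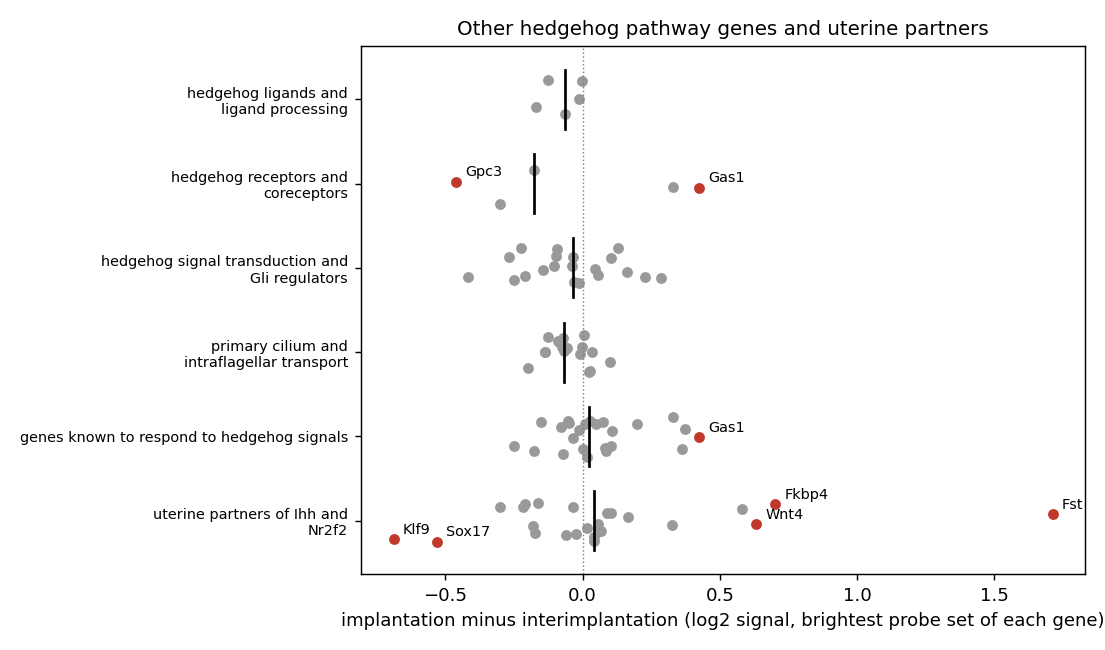
Difference between implantation and interimplantation sites (horizontal axis, log2 signal) of the genes of each list by their brightest probe sets, with the list median as a black line and called genes in red with their names. Gas1 stands in 2 lists. The hedgehog genes lie between −0.46 for Gpc3 and 0.42 for Gas1, and the called uterine partners run from −0.69 for Klf9 to 1.71 for Fst.

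By their brightest probe sets, 1835 of all 12393 genes had an unadjusted p under 0.05. Of 20 measured genes of signal transduction and Gli regulation, 0 passed, with 5 at an unadjusted p under 0.05. The smallest p belonged to Gsk3b, a kinase that marks Gli proteins for processing (0.29, limma adjusted p = 0.129), Numb, an adaptor for the breakdown of Gli1 (−0.42, adjusted p = 0.156), and Arrb1, an arrestin (−0.27, adjusted p = 0.253). Gsk3b passed once scaled to the hybridisation controls (adjusted p = 0.0463), which put Arrb1 at 0.13. Of 18 genes of the primary cilium, the organelle in which vertebrate hedgehog signals are passed on, 0 passed, with 1 at an unadjusted p under 0.05. Bbs2, a subunit of the BBSome that moves ciliary membrane proteins, was at −0.20 (adjusted p = 0.280), Ift88, of intraflagellar transport, at 0.10 (adjusted p = 0.655) and B9d1, of the ciliary transition zone, at −0.14 (adjusted p = 0.659). With the same scaling Bbs2 and B9d1 were positive, at 0.20 and 0.26.

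Of 24 measured genes known to respond to hedgehog signals, 1 rose, which was Gas1 again, and 0 fell (4.17%, beside 2.54% of all genes). At an unadjusted p under 0.05 were 4 of the 24. The list does not separate genes by the direction of their response, so a rise in it is no reading of pathway activity. Ccne1 and Ccnd1, cyclins of the entry into the cell cycle, were at 0.36 and 0.37 and did not pass (limma adjusted p = 0.0509 and 0.0636). Ccnd1 had 2 further probe sets at 0.27 and 0.0036, which did not pass either. Ccne1 passed with repeated quantile normalization, array weights, a trended and robust variance or the control scaling, and when interimplantation array 1 was left out (adjusted p between 0.0203 and 0.0498), and Ccnd1 with repeated quantile normalization, array weights, the control scaling and without the dim probe sets (adjusted p between 0.0175 and 0.0493). Pdgfra, the receptor for platelet-derived growth factor of mesenchymal cells, fell on 1 of its 2 probe sets. That probe set, 1421917_at, read 5.80, 5.80 and 5.63 at implantation sites, against 6.35, 6.53 and 6.44 at interimplantation sites, without overlap (difference −0.70, SE 0.088, adjusted p = 0.00179). The brighter probe set 1421916_at was at −0.25, also without overlap, and did not pass (adjusted p = 0.362). With scaling to the hybridisation controls the 2 probe sets were at −0.30 and 0.15, and neither was called.

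The uterine partners of Ihh and Nr2f2 form a list of genes that act upstream, beside or downstream of the pair in mouse, and it was assembled with some of their values known, so its counts are no independent evidence. Of 25 measured genes, 3 rose (Fst, Fkbp4 and Wnt4), 2 fell (Klf9 and Sox17) and 20 did not pass. At an unadjusted p under 0.05 were 7 of the 25. The called share was 20.0%, beside 2.54% of all genes, and the median difference was 0.041, beside −0.020. The plot of the called genes gives each array.

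Wnt4, a stromal WNT ligand of decidualisation that is reduced in mouse uteri without Nr2f2, read 6.08, 5.98 and 6.11 at implantation sites, against 5.35, 5.64 and 5.29 at interimplantation sites. It was 1.55-fold higher without overlap (difference 0.63, SE 0.10, limma adjusted p = 0.00633). Fst, the activin antagonist follistatin, read 6.91, 7.41 and 6.81 at implantation sites, against 5.49, 5.20 and 5.30 at interimplantation sites (difference 1.71, adjusted p = 1.34e-04). Both stood clear of the interimplantation range on every implantation array.

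Fkbp4, a cochaperone that the progesterone receptor needs for full activity, read 6.43, 6.44 and 6.54 at implantation sites, against 5.70, 5.95 and 5.67 at interimplantation sites on 1416362_a_at (difference 0.70, SE 0.094, limma adjusted p = 0.00249). Its other probe set was at −0.13 (adjusted p = 0.547). Vcan, the matrix proteoglycan versican, rose on 1 of 3 probe sets: 1421694_a_at read 6.11, 5.98 and 6.32 at implantation sites, against 5.33, 5.26 and 4.60 at interimplantation sites (difference 1.08, SE 0.17, adjusted p = 0.00506). Its other probe sets were at 0.18 and 0.058, and the brightest, 1427257_at, was among those that did not pass, so Vcan is not in the count of 3. Once the control level entered as a covariate, the differences were 0.50 for Wnt4, 0.58 for Fkbp4 and 1.15 for Vcan, and none was called (adjusted p = 0.138, 0.0716 and 0.0599).

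Klf9, a Krüppel-like factor that interacts with the progesterone receptor, read 6.82, 6.82 and 6.77 at implantation sites, against 7.58, 7.35 and 7.54 at interimplantation sites on its brightest probe set 1428288_at. It was 1.61-fold lower without overlap (difference −0.69, SE 0.087, limma adjusted p = 0.00189), and −0.29 once scaled to the hybridisation controls (adjusted p = 0.235). With the covariate it was −0.57 and not called (adjusted p = 0.0583). None of its other 6 probe sets passed, and they ran from −0.45 to 0.030. Sox17, an epithelial transcription factor that binds near Ihh in mouse, read 5.27, 5.78 and 5.64 at implantation sites, against 6.14, 6.17 and 5.96 at interimplantation sites (difference −0.53, SE 0.12, adjusted p = 0.0467). With scaling to the hybridisation controls Sox17 was at −0.13 (adjusted p = 0.564), and with the covariate at −0.66, not called (adjusted p = 0.114). Its call was lost without implantation array 1 or 3 or any interimplantation array (adjusted p between 0.0641 and 0.174), with differences between −0.59 and −0.38. Its second probe set was at 0.072. Sox17 is also one of the 17 epithelial markers given beside Ihh.

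**Figure D5:**
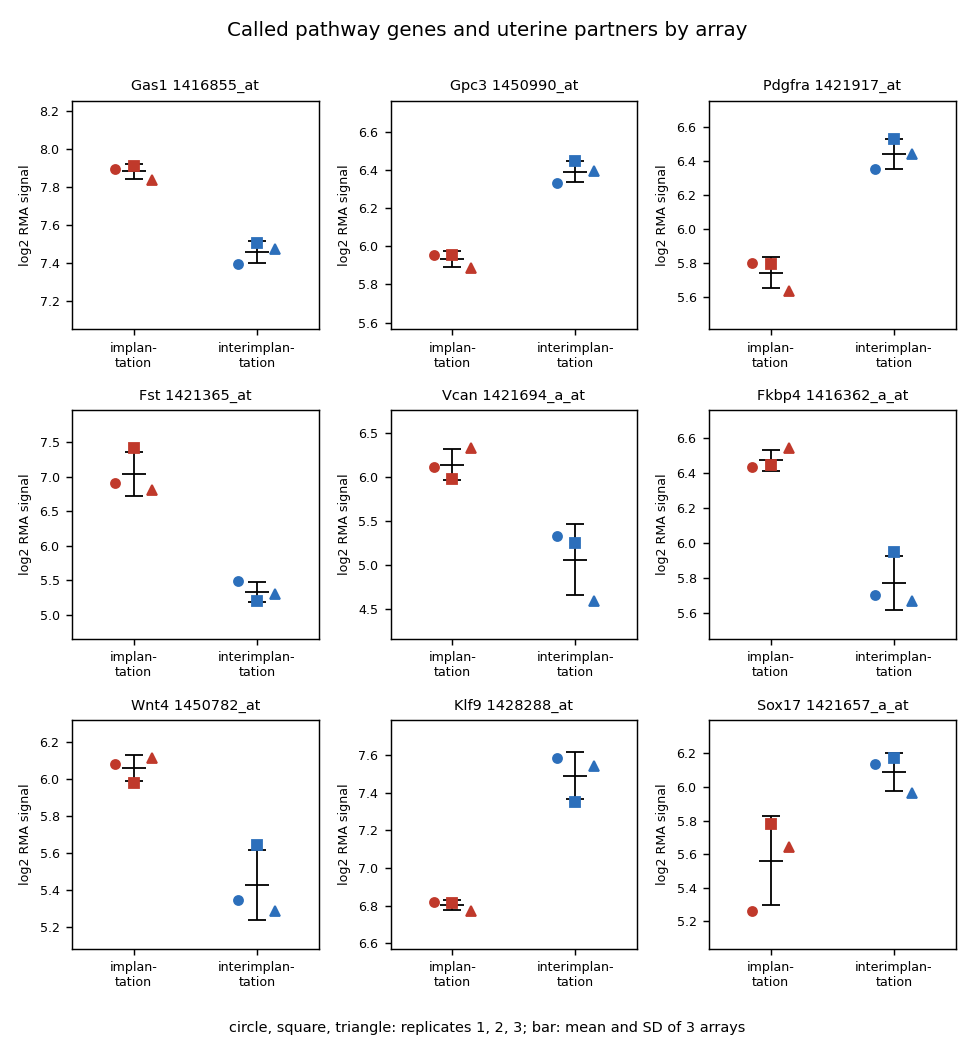
Log2 RMA signal (vertical axis) of the 9 called genes among hedgehog pathway genes and uterine partners, on implantation arrays (red, left) and interimplantation arrays (blue, right), one probe set per gene (that of lowest p), with the mean and SD of 3 arrays in black. On these probe sets Gas1, Fst, Vcan, Fkbp4 and Wnt4 are higher and Gpc3, Pdgfra, Klf9 and Sox17 lower at the implantation site, without overlap.

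Partners outside the naming rule, chosen after their values were seen, include the receptor and factors around Ihh. Pgr, the progesterone receptor, read 4.73, 4.46 and 4.68 at implantation sites, against 4.74, 4.15 and 4.005 at interimplantation sites (difference 0.32, limma adjusted p = 0.395), with overlap. It passed once scaled to the hybridisation controls (adjusted p = 0.0320), which raises every difference by the same amount. Hand2, a stromal factor under progesterone control, read 6.95, 6.79 and 6.83 at implantation sites, against 5.86, 6.48 and 6.49 at interimplantation sites (difference 0.58, adjusted p = 0.0685). It did not pass, although its groups did not overlap, and it passed under that scaling (adjusted p = 7.89e-04). Gata2, an epithelial factor upstream of Pgr and Ihh in mouse, was at 0.067 (adjusted p = 0.795), and Bmp2, a morphogen downstream of Nr2f2 in mouse, was at 0.056 on a probe set below the Bacillus median (adjusted p = 0.828).

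Genes with the most similar pattern over the 6 arrays were sought among 10302 probe sets of 1 symbol above the median signal, by Pearson's r as a description. For Ihh these were Gipc1 (0.995), Gprc5d (0.989) and Dab2ip (0.989). For Nr2f2 1416159_at they were Ube2b (0.996), Cops2 (0.995) and Hnrnpr (0.993), and for Sufu 1450024_at Gpr108 (0.993), Ypel3 (0.991) and Ccnl2 (0.990). With 6 arrays such values are common: 102, 151 and 309 of the 10302 probe sets other than the target itself had r above 0.9 with Ihh, Nr2f2 and Sufu.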

How the data were processed

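The authors deposited a log2 RMA value for each of 22690 probe sets on 6 arrays, with Partek 6.6 named per the submitters' processing notes. No source names the log base, and 2 was taken because RMA normally gives it and the values span a matching range. Genes were named from the platform annotation, where 20380 probe sets had 1 symbol. 64 control probe sets were left out and 22626 tested with limma 3.58.1 under R 4.3.3 (a linear model with group as its only term, eBayes, two-sided), with Benjamini-Hochberg adjustment over all of them and no filter on level. A call is an adjusted p under 0.05. All adjusted p-values come from this fit unless another setting is named. Tests on simulated data preceded the fit. The number of arrays limits the precision.

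The members and the gene lists were chosen with earlier results of these data known. The rule for named genes took every member probe set, every listed pathway gene with a called probe set, the 3 genes with the smallest p of each list, and the 3 genes most correlated with Ihh, Nr2f2 and any called member. The alternatives covered the variance model, the replicate number as a block, normalization, array weights, filters, the hybridisation controls (18 probe sets, as a scaling or a covariate) and each array left out. Same-numbered arrays of the groups did not deviate together (correlations −0.090, 0.071 and −0.028), so they were not treated as pairs. Arrays of unlike number had correlations from −0.093 to 0.10. These values cannot show whether the groups share animals.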

Additional observations from a re-analysis of the deposited data

How the results depend on the processing

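With 3 arrays a group, the smallest exact permutation p is 0.1, and dim probe sets limit what a null result can show: 13 of the 16 members lay at or under the brightest Bacillus control and were left out by the filter on dim probe sets, which removed both Sufu probe sets. No member was called higher under any alternative.

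The replicate block, which fits the replicate number although it did not pair the arrays, called 0 members lower and put Sufu 1450024_at at −0.36 (limma adjusted p = 0.0617). Over the array it gave 294 higher and 240 lower. The members called lower were also 0 without dim probe sets, without shared probe sets, with scaling to the hybridisation controls and with their level as a covariate. Sufu 1450024_at was at −0.36 when shared probe sets were left out (adjusted p = 0.0502), −0.38 under the covariate (adjusted p = 0.172) and 0.035 with the scaling (adjusted p = 0.877). It stayed called with a trended and robust variance, repeated quantile normalization, array weights and the control probe sets kept (adjusted p between 0.0238 and 0.0494).

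Over all probe sets, calls were 752 higher and 13 lower with the scaling, 77 higher and 130 lower with the covariate, 138 higher and 96 lower without shared probe sets, and 363 lower with array weights. With 1 array left out they ran between 117 and 329 higher and between 88 and 401 lower, and members called lower between 0 and 1. Hedgehog pathway genes called higher were 2 with a trended and robust variance, 3 each with repeated quantile normalization, array weights and no dim probe sets, 5 with the scaling and 0 with the covariate. Those called lower were 0 with the scaling, 0 with the covariate and 2 when all probe sets of a gene were averaged. With 1 array left out these counts ran between 0 and 2 higher and between 0 and 1 lower.

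Signs reversed with the scaling for Ihh (0.22), Ptch1 1450824_at (0.37), Gli1 (0.30), Gli2 1459211_at (0.29), Sufu 1420848_at (0.32), Nr2f2 1416159_at (0.29) and 1416160_at (0.37), and for Shh (0.23), Hhat (0.27), Scube1 (0.33), Arrb1 (0.13), Bbs2 (0.20) and B9d1 (0.26). The scaling adds the same amount to every probe set, which by construction moves small negative differences past 0. With the covariate they reversed for Ihh (0.033), Smo 1427048_at (−0.059), Gli2 1446086_s_at (−0.10), Hhip 1421426_at (−0.15), Sufu 1420848_at (0.12) and Nr2f2 1416158_at (−0.037). Smo 1427048_at was at −0.00066 with array weights and Nr2f2 1416160_at at 0.0023 with repeated quantile normalization. The cause of the reversals other than those with the scaling was not tested, and no reversed value passed the test.

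With 1 array left out, differences ran from −0.25 to −0.081 for Ihh, −0.0066 to 0.059 for Ptch1 1428853_at, −0.056 to 0.0082 for Ptch1 1450824_at, −0.026 to 0.065 for Smo 1427048_at, −0.076 to 0.16 for Smo 1427049_s_at and −0.34 to 0.052 for Gli1. They ran from 0.011 to 0.16 for Gli2 1446086_s_at, −0.14 to −0.053 for Gli2 1459211_at, −0.017 to 0.11 for Gli3, −0.052 to 0.13 for Hhip 1421426_at and 0.040 to 0.087 for Hhip 1438083_at. They ran from −0.16 to 0.021 for Sufu 1420848_at, −0.39 to −0.32 for Sufu 1450024_at, 0.021 to 0.13 for Nr2f2 1416158_at, −0.21 to 0.0015 for Nr2f2 1416159_at, −0.079 to 0.059 for Nr2f2 1416160_at and −0.12 to 0.036 for Scube1.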

Other observations

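The remaining markers were read by the brightest probe set of each gene. Of all 12393 genes read in that way, 1835 had an unadjusted p under 0.05. Of 16 measured markers of stroma and decidua, where Nr2f2 is expressed in mouse, 0 passed the limma test and 3 had an unadjusted p under 0.05. Pdgfra is among the 16, and its dimmer probe set 1421917_at was called lower (−0.70, limma adjusted p = 0.00179). The mean log2 signal over the 16 ran from 5.95 to 6.04 on the implantation arrays and from 5.97 to 6.02 on the interimplantation arrays. Of 11 endothelial markers 0 passed (1 at an unadjusted p under 0.05), with mean signals of 5.04 to 5.07 on implantation arrays and 5.06 to 5.16 on interimplantation arrays. Of 13 leukocyte markers 0 passed (2 at an unadjusted p under 0.05), with mean signals of 4.72 to 4.81 on implantation arrays and 4.72 to 4.88 on interimplantation arrays. Of 13 markers of trophoblast and embryo 0 passed (1 at an unadjusted p under 0.05), and the mean signal was 4.28 to 4.32 on implantation arrays and 4.37 to 4.46 on interimplantation arrays, a difference of −0.11. These ranges did not overlap, and 11 of the 13 differences were negative. The exceptions were Cdx2 (0.11) and Hand1 (0.0046). The keratins Krt18 (−0.47) and Krt8 (−0.16) stand both in this list and among the 17 epithelial markers given beside Ihh. Krt18 had the largest difference of the 13, so the lower mean is in part shared with the epithelial markers. Outside the keratins, the largest negative differences were −0.21 for Ascl2, −0.18 for Elf5 and −0.13 for Eomes, and none passed. The mean without Krt18 and Krt8 was not tested.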
